A study of Mus musculus with 8 samples.

Results

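The comparison described here set the epithelium of uteri that lack Ezh2 against the epithelium of control uteri, gene by gene. Its members are all 5811 genes of the authors' table of Ezh2cKO against WT epithelium spots, out of 5828 genes listed over the 4 tables of the series. Uterine sections were profiled by Visium, in which RNA from a tissue section is captured on a grid of barcoded spots, and each spot can cover several cells of different types. Adult females of a mixed C57BL/6 and 129SvEv background were used, and each of 4 litters gave 1 female per genotype. The Ezh2cKO mice (KO below, 4 uteri) were EZ fl/fl; Prcre/+, that is, homozygous for floxed Ezh2 with Cre expressed from the progesterone receptor locus. The controls (WT below, 4 uteri) were EZ fl/fl, so they carried the same floxed alleles without Cre. Both genotypes were ovariectomized at postnatal day 71 ± 4 and their uteri were collected at day 112 ± 11, so ovarian hormones were withdrawn in both. Cre from this locus is not restricted to the epithelium, since stroma and muscle of the uterus also express the receptor. The KO mice carried Cre and the WT mice did not, so the effect of the deletion and that of the Cre allele itself cannot be told apart.

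Ezh2 is the methyltransferase subunit of Polycomb repressive complex 2, which methylates histone H3 at the K27 lysine, a mark of silent genes. Eed and Suz12 are its obligate partners, Ezh1 is a paralog that can take the place of Ezh2, and Polycomb repressive complex 1, with the Ring and Cbx proteins, binds the mark. Textbook targets are developmental transcription factors, Hox genes and cell-cycle inhibitors, many of which have promoters rich in CG dinucleotides. The uterine epithelium is a simple columnar layer with glands, and its secretion, growth and death follow estrogen and progesterone, largely through signals exchanged with the stroma beneath it.

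The deposited values are 1 average per gene and group, pooled over the spots of all 4 uteri of a genotype. They hold no spread between animals, so no difference below has a replicate check. UMIs (unique molecular identifiers, each a captured RNA molecule) were recovered from the averages. The listed genes summed to 1552415 UMIs in KO and 1428235 in WT, with a median of 103 and 102 UMIs per gene. Intervals after folds are 95% exact intervals that cover counting error only. A gene is called where the authors' deposited table gives an adjusted p under 0.05, and for all other genes values are given without a verdict. Every listed gene had an average above 1 in at least 1 genotype. Of the 5811 genes, 4899 were above 1 in both, 299 in KO alone and 613 in WT alone. A gene of low level is therefore listed if it is high in either genotype, and counts over listed members of a group are descriptions of what was listed.

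Markers of simple epithelium were present in both genotypes. All 11 markers, among them Krt7, Krt8, Krt18, Krt19, Epcam, Cdh1, Cldn3, Cldn4, Cldn7 and Muc1, were listed, with a summed level of 88.9 in KO and 99.5 in WT, where a level is UMIs divided by the summed size factors of the pool. In WT mice 8 of them were listed in the comparison of epithelium with stroma, and all 8 were called higher in epithelium, where 28.8% of 1769 listed genes were called in either direction. Markers of other cell types were present too. All 9 stroma markers were listed, 7 of them higher in KO, with a summed level of 140 in KO and 101 in WT. Of 6 smooth muscle markers 5 were listed (Actg2 was not), none higher in KO, and their sum was 9.13 in KO and 16.7 in WT. Of 5 lymphocyte and plasma cell markers Jchain and Igkc were listed, both higher in KO, with a sum of 71.6 against 41.9. Of the endothelial markers 2 of 5 were listed (3.71 against 3.06), of the macrophage markers 1 of 5 (2.61 against 3.76), of the erythrocyte markers 1 of 2 (1.28 against 0.773), and of the mast cell and mesothelial markers 0 of 3 each. In pooled spots of mixed cells, more cells of a type and more RNA per cell cannot be told apart.

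Ezh2 itself is not among the listed genes, so the deletion was not checked at its transcript. Of the other core subunits, Eed had 62 UMIs in KO and 72 in WT (log2 ratio of KO over WT -0.33), Suz12 had 72 and 86 (-0.37), and the paralog Ezh1 had 118 and 130 (-0.26). All 3 counting intervals included equal levels. Among 22 listed Polycomb group genes 8 had a ratio above 0, none was called, and the median log2 ratio was -0.17, beside -0.10 over all listed genes. Rnf2, the catalytic ubiquitin ligase of Polycomb repressive complex 1, had the highest ratio (76 against 48 UMIs, 0.55). Phf1, a Polycomb-like accessory subunit of Polycomb repressive complex 2, had the lowest (69 against 106 UMIs, -0.74). Of 53 other chromatin regulators 15 lay above 0, with a median of -0.16. The demethylase gene Kdm5a was at least 1.5-fold lower in KO (62 against 96 UMIs, -0.75), and the linker histone gene H1f0 had the highest ratio (272 against 185 UMIs, 0.44).

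Pgr, the gene that drives Cre, had 240 UMIs in KO and 257 in WT (-0.21), and the estrogen receptor gene Esr1 had 847 and 849 (-0.12). Neither was called, and their adjusted p is 1 in the authors' deposited table.

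Across the 5811 genes the distribution of ratios was narrow. The middle 50% lay between log2 ratios of -0.28 and 0.08, and 35.2% of genes (2045) lay above 0. The authors' deposited table gives an adjusted p of 1 for 97.8% of genes, an adjusted p under 0.5 for 30 genes and one under 0.1 for 9. It calls 7 genes, 0.12% of those listed. Of these 4 were higher in KO (0.0688%) and 3 lower (0.0516%). Without regard to a call, 200 genes were at least 1.5-fold higher in KO (3.44%) and 314 at least 1.5-fold lower (5.4%), and 41 and 34 passed 2-fold. This split depends on the scale: with ratios centred on the median gene, which shifts each by 0.10, 280 genes were at least 1.5-fold higher and 176 lower. Large ratios were most frequent among genes with few UMIs. Of 1556 genes with fewer than 150 UMIs over both genotypes 82 were at least 1.5-fold higher and 169 lower, and of 365 genes with 1000 or more UMIs 17 were higher and 8 lower.

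**Figure D1:**
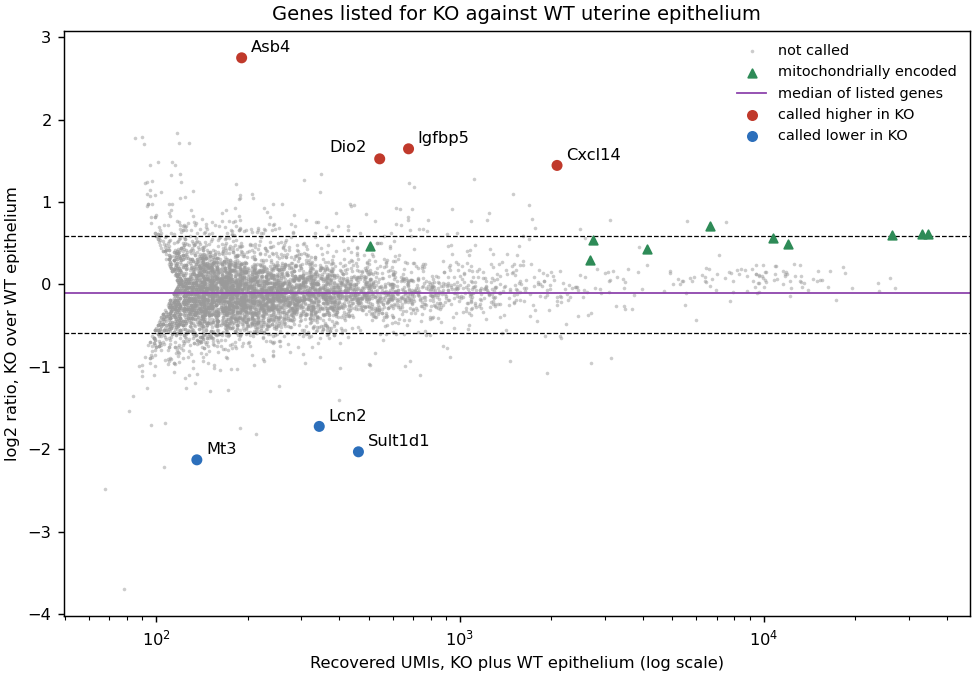
Log2 ratio of KO over WT epithelium (vertical axis) against the recovered UMIs of both genotypes together (horizontal log axis) for the 5811 listed genes, with 1 point per gene. Red and blue points are the 4 genes called higher and the 3 called lower, green triangles are the 10 mitochondrially encoded transcripts, dashed lines mark 1.5-fold and the purple line marks the median of -0.10. The called genes lie outside the dashed lines, among many uncalled genes of similar ratio at low UMI sums.

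The 4 genes called higher in KO epithelium encode a ubiquitin ligase adaptor, a chemokine, a deiodinase and a growth factor binding protein. Asb4 is an ankyrin-repeat protein with a SOCS box, which brings substrates to a ubiquitin ligase, and its gene is imprinted in the mouse. It had 168 UMIs in KO and 23 in WT, a 6.74-fold rise (interval 4.34 to 10.9). Asb4 lies on chromosome 6 (5383386 to 5433022, plus strand, GRCm38) beside other imprinted genes. Within 1 Mb of its start 7 other genes were listed, none of them called, with log2 ratios from -0.58 to 0.87. Col1a2, a type I collagen gene at the far end of that interval, had the highest of these, and Sgce and Ppp1r9a, both imprinted neighbours, had -0.03 and -0.37. Over all listed genes 0.12% were called, so uncalled neighbours do not set this locus apart.

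Cxcl14 encodes a chemokine made by epithelia and stroma. It had 1559 UMIs in KO and 528 in WT, a 2.72-fold rise (2.47 to 3.01), and of the called genes it rested on the most UMIs. In WT uteri it was an epithelial transcript by these tables, with a log2 ratio of epithelium over stroma of 1.65, and in KO uteri, where 9.88% of 2744 genes were called between the compartments, the ratio was 0.52. The 18 other genes listed within about 1 Mb had log2 ratios from -0.78 (Slc25a48, a mitochondrial carrier) to 0.24, and none was called, beside 0.12% of all listed genes.

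Dio2, the deiodinase that converts thyroxine to active thyroid hormone, had 412 UMIs in KO and 132 in WT, a 2.88-fold rise (2.36 to 3.53). Igfbp5, a secreted protein that binds insulin-like growth factors and matrix, had 523 and 154 UMIs, a 3.13-fold rise (2.61 to 3.78). The genes differ in where WT uteri express them. Igfbp5 had a WT log2 ratio of epithelium over stroma of -2.58, so it was mainly a transcript of stroma spots, and Dio2 had -0.59.

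The 3 genes called lower encode a sulfotransferase, a lipocalin and a metallothionein. Sult1d1, a cytosolic sulfotransferase, had 97 UMIs in KO and 366 in WT, 4.09-fold lower in KO (3.26 to 5.17). Lcn2, lipocalin 2, a secreted protein that withholds iron from bacteria and responds to estrogen in the uterus, had 85 and 259 UMIs, 3.30-fold lower (2.58 to 4.27). Both were epithelial transcripts in WT uteri, with log2 ratios of epithelium over stroma of 2.58 and 4.09. Mt3, a metal-binding metallothionein best known from the brain, had 27 and 109 UMIs, 4.38-fold lower (2.85 to 6.94).

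Promoter windows, the 250 bases before each RefSeq transcription start on GRCm38.p6, are shown for the called genes with the most UMIs in each direction, Cxcl14 and Sult1d1, because the targets of Polycomb are often rich in CG dinucleotides. Capitals mark each CG, and each window is written 5′ to 3′ on the gene's own strand, which is the minus strand for both. The Cxcl14 window is at chr13:56296552-56296801 and that of Sult1d1 at chr5:87569007-87569256.
Cxcl14: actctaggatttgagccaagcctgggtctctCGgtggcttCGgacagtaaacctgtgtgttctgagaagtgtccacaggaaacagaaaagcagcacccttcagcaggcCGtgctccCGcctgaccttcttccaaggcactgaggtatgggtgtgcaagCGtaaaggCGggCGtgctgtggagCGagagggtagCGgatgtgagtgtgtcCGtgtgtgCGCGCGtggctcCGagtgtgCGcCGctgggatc
Sult1d1: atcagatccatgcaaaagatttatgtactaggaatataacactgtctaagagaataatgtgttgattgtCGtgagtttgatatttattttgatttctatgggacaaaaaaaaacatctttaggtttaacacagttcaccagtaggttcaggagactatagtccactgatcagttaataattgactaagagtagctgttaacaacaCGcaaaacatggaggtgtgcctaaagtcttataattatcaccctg
The Cxcl14 window holds 16 CG dinucleotides and the Sult1d1 window 2. Windows of listed genes had a median of 17, with quartiles of 10 and 24, over 6065 windows of the 4696 listed genes that had one. Among the other called genes Igfbp5 had 10, Mt3 5, Lcn2 3, Dio2 2, and Asb4 4 and 8 in its 2 windows. Every called gene was below the median of listed windows, those called higher and those called lower alike, though Cxcl14 lay between the quartiles and Igfbp5 at the first. The counts depend on the annotated start that places each window. The Lcn2 window (chr2:32387740-32387989) lies inside the gene in GENCODE, which runs to 32388252. The Dio2 window starts at 90739039, beyond the end of its gene there, 90738438. The windows describe the genes, and nothing deposited here measured the histone mark at them.

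Metallothionein genes form a cluster on chromosome 8, and all 3 listed members had lower values in KO. Mt1 and Mt2 are the general, metal-induced forms that buffer zinc and copper. Mt2 had 656 UMIs in KO and 1271 in WT (log2 ratio -1.07, 2.10-fold lower in KO, 1.91 to 2.31), and Mt1 had 1162 and 1985 (-0.89). Neither was called, and the authors' deposited table gives adjusted p of 0.384 and 0.637. Mt2 starts 20057 bases and Mt1 26475 bases after the start of Mt3. The other genes listed around them did not share the low ratio as a rule: Bbs2 had -0.83, Nudt21 0.11 and Herpud1 -0.12. The 3 promoter windows are shown with the core of the metal response element, TGCNCNC on either strand, in capitals, since metal-induced transcription of Mt1 and Mt2 runs through that element. They lie on the plus strand at chr8:94152357-94152606 (Mt3), chr8:94172368-94172617 (Mt2) and chr8:94178839-94179088 (Mt1).
Mt3: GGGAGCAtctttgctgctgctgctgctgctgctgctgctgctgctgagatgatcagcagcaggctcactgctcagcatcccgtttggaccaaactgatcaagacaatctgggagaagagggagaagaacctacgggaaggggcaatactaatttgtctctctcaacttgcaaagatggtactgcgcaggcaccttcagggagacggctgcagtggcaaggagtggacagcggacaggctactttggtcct
Mt2: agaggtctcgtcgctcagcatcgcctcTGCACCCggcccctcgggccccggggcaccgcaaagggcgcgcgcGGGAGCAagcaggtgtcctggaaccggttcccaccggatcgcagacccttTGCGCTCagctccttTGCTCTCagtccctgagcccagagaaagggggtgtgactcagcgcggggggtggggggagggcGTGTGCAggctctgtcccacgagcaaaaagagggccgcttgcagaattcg
Mt1: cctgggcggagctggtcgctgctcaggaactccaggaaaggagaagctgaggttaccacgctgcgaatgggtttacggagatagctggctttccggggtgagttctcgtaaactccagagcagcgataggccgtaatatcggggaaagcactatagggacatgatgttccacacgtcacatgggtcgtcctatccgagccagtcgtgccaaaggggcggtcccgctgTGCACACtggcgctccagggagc
The Mt2 window holds 5 matches, 3 on the written strand and 2 on the other. The windows of Mt1 and Mt3 hold 1 each. These counts depend on the annotated start that places each window. The Mt1 window runs past the gene start in GENCODE, 94179082, and the Mt2 window ends before its own, 94172664. Bases outside the windows were not searched, so the counts do not compare the whole promoters of Mt1, Mt2 and Mt3. The core is short and common: 53.2% of the windows of listed genes hold at least 1 match and 2.03% hold 4 or more, and over all 32841 RefSeq windows the shares are 44.4% and 1.28%. A match describes letters and is no evidence of binding. In WT uteri Mt1 and Mt2 were epithelial transcripts (log2 ratio of epithelium over stroma 2.20 and 2.68), and in stroma spots Mt1 had a KO over WT ratio of -0.12.

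The 10 uncalled genes with the lowest adjusted p included 9 with higher values in KO, and 4 of these encode matrix proteins or an enzyme of the matrix. Tnxb, a tenascin of the loose matrix, had 255 UMIs in KO and 93 in WT (log2 ratio 1.34), with an adjusted p in the authors' deposited table of 0.084. Loxl1, which crosslinks elastin, had 100 and 28 (1.72), Col6a4, a collagen VI chain, had 487 and 192 (1.23), and Spon2, a secreted matrix protein, had 222 and 85 (1.27). Beside these stood Padi2, a peptidylarginine deiminase that estrogen induces in the uterus, with 93 and 24 UMIs (1.84), and Calml4, a calmodulin-like protein, with 71 and 19 (1.79). Lsp1, an actin-binding protein of leukocytes, had 1041 and 448 (1.10), Gja1, the gap junction protein connexin 43, had 86 and 29 (1.45), and Ppp2r2c, a regulatory subunit of protein phosphatase 2A, had 71 and 20 (1.71). Ccn2, a matricellular growth factor also called CTGF, was the 1 gene of the 10 with a lower value in KO, with 46 and 142 UMIs (-1.74).

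**Figure D2:**
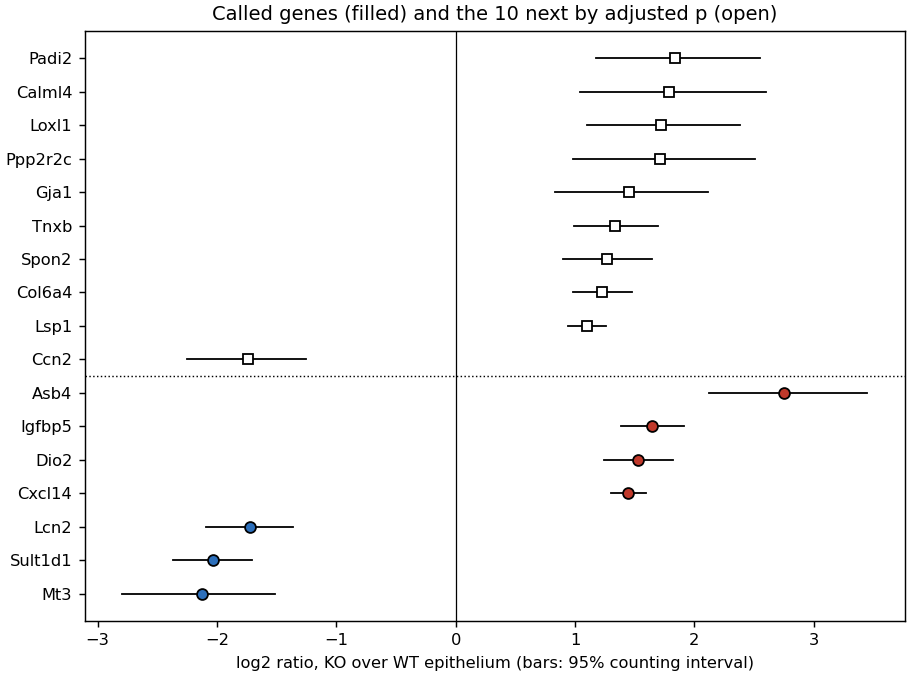
Log2 ratio of KO over WT epithelium (horizontal axis) for the 7 called genes (filled circles, below the dotted line) and the 10 uncalled genes of lowest adjusted p (open squares), with bars for the 95% counting interval. No bar crosses 0, from Asb4 at 2.75 to Mt3 at -2.13, and the called and uncalled genes overlap in size of ratio. The bars leave out the spread between animals.

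Beyond these, the 15 highest and the 15 lowest ratios among uncalled genes with at least 100 UMIs held genes of several kinds. On the high side A2m, the protease trap alpha-2-macroglobulin, had 76 UMIs in KO and 25 in WT (1.49) and the T-cell chemokine Ccl5 had 93 and 26 (1.72). Dapk2, a death-associated kinase, had 85 and 28 (1.49), and Cdkn2c, the cell-cycle inhibitor p18, had 87 and 34 (1.24). On the low side 6 of the 15 were members of the smooth muscle list. Ihh, the hedgehog ligand through which progesterone signals from epithelium to stroma, had 46 and 104 (-1.29). The transcription cofactors Cited4 (80 and 173, -1.23) and Cited2 (43 and 85, -1.10), the small adaptor Bex1 (53 and 119, -1.28), the junctional adhesion molecule Jam2 (39 and 86, -1.26), and the cholesterol enzyme Fdps (41 and 83, -1.13) were also among the lowest.

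Gene groups are given next by their role in the tissue, each with its number of listed members, the number with a ratio above 0 (35.2% of all listed genes), the numbers past 1.5-fold (3.44% higher and 5.4% lower over all genes) and the median log2 ratio (-0.10 over all genes). Unless a called gene is named, a group held no called gene.

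Genes of epithelial identity lay close to the rest of the table. Of 25 listed markers of luminal and simple epithelium 6 were above 0, with a median of -0.14. Keratin 19, Krt19, had 1002 UMIs in KO and 815 in WT (0.18), Cd24a had 920 and 1049 (-0.31), and Cldn3, a tight junction claudin, had 786 and 1117 (-0.62). The members past 1.5-fold were Muc1, the cell-surface mucin (86 and 48, 0.73), and on the low side Cldn3, the transcription factor Grhl2 (56 and 84, -0.70) and Calb1, the calcium-binding protein calbindin (248 and 436, -0.93). Of 20 genes of junctions and polarity 7 were above 0, with a median of -0.21. The tight junction gene Cldn10 had the highest ratio (833 and 595, 0.37), Ctnnb1, beta-catenin, had 1011 and 1076 (-0.21), and the polarity gene Crb3 was lowest (66 and 93, -0.61).

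Of the glandular markers 7 were listed. Foxa2 and Sox9, which define glands, were not among them. Cxcl15, a chemokine of mouse uterine glands, had 131 UMIs in KO and 52 in WT (1.22), the gap junction gene Gjb2 had 66 and 29 (1.07), and the lipoxygenase gene Alox15 had 76 and 48 (0.55). The members with more UMIs had lower values in KO: Wfdc2, a secreted protease inhibitor, had 3767 and 3980 (-0.20), Sox17 had 594 and 664 (-0.28), and Aldh1a1 had 261 and 334 (-0.47). Lgr5, an epithelial stem cell marker, had 97 and 79 (0.18). The list median was 0.18 over all 7 and -0.24 over the 4 with an average above 1 in both genotypes. No single direction thus described the glandular markers.

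Among 11 secreted defence and mucin genes, Lcn2 was the 1 called gene and the spread was wide (median -0.20, 4 above 0). C3, complement component 3, which estrogen induces in uterine epithelium, had 504 UMIs in KO and 204 in WT (1.19). Ltf, lactotransferrin, an iron-binding secretory protein and another classic estrogen target, had 232 and 425 (-0.99). Lyz2, lysozyme, had 161 and 214 (-0.53), and Clu, clusterin, had 100 and 131 (-0.51). Genes of 1 functional class therefore stood on opposite sides, with C3 higher and Lcn2 and Ltf lower in KO.

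The same split ran through the 18 listed estrogen-induced genes, of which 12 were above 0, 5 at least 1.5-fold higher and 2 at least 1.5-fold lower (median 0.23). On the high side were Padi2, Clca1 (a secreted chloride channel regulator, 809 UMIs in KO and 307 in WT, 1.28), C3, Gadd45g (a growth arrest gene, 114 and 56, 0.91) and Muc1. On the low side were Lcn2, called, and Ltf. Greb1, an estrogen-induced cofactor of the estrogen receptor, had 46 and 62 (-0.55), and Ccnd1, cyclin D1, had 426 and 338 (0.22). With no ovary in either genotype, these values are levels without ovarian estrogen.

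Of 14 progesterone-induced genes 4 were above 0 and 1, Ihh, was at least 1.5-fold lower, shares near those over all genes, and the median was -0.33. In the hedgehog pathway as a whole 1 of 7 listed genes was above 0 (median -0.16): the stromal targets Ptch1 (162 UMIs in KO and 191 in WT, -0.35) and Gli1 (141 and 180, -0.47) stood lower with their ligand, the receptor Smo had 165 and 170 (-0.16), the inhibitor Sufu 61 and 62 (-0.14), the coreceptor Gas1 124 and 122 (-0.09), and Nr2f2, the stromal factor COUP-TFII downstream of Ihh, had 478 and 436 (0.02). Apart from Ihh no hedgehog gene lay past 1.5-fold. Msx1, a homeobox factor of uterine receptivity, had 1201 and 1432 (-0.37), and Alox15 had the highest ratio of the progesterone list (0.55). The 18 steroid receptors and coregulators lay within -0.55 and 0.13, with none past 1.5-fold in either direction (median -0.16).

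Genes of the insulin-like growth factor axis were higher as a group, with 10 of 12 listed members above 0 and a median of 0.43, and 1 of them, Igfbp5, was called. These binding proteins hold the growth factors away from their receptors or deliver them to it. Igfbp6 had 630 UMIs in KO and 308 in WT (0.92), Igfbp4 had 2029 and 1090 (0.78), and Igfbp7 had 2329 and 1565 (0.46). Htra1, a secreted protease that cleaves them, had 428 and 262 (0.59). The adaptor Grb10, an imprinted brake on the receptors, had the lowest ratio (138 and 141, -0.15). The 4 members past 1.5-fold were thus 3 binding proteins and the protease. In WT uteri 10 members were listed in the comparison of epithelium with stroma, 9 of them higher in stroma (median -1.16). There 7 were called higher in stroma and 1 in epithelium, beside 28.8% of all 1769 genes called in either direction. In stroma spots 6 of 8 were above 0, KO over WT (median 0.17). The part of stroma in the epithelium values was not tested.

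Retinoid genes had 10 of 12 listed members above 0 and 4 past 1.5-fold higher (median 0.23). Retinoic acid is made from retinal by the Aldh1a enzymes and acts through the Rar receptors. Aldh1a3 had 88 UMIs in KO and 32 in WT (1.34), and Aldh1a2, the form known from stroma, had 129 and 58 (1.04). The receptor Rarg had 156 and 87 (0.73). Aldh1a1 was the exception with -0.47, as given above. The named members with high ratios covered synthesis and reception of retinoic acid.

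Of 7 thyroid hormone genes 6 were above 0 (median 0.14). Downstream of Dio2 the values were smaller or of the other sign: the receptor Thra had 225 UMIs in KO and 266 in WT (-0.36), the hormone-induced factor Klf9 had 214 and 196 (0.01), Thrsp had 278 and 232 (0.14), and the coactivators Med1 and Thrap3 had 0.48 and 0.12. The high value at activation of the hormone thus had no counterpart at its receptor.

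In the Wnt pathway 14 of 29 listed genes were above 0 (median -0.05, which was 0.05 once centred on the median gene and 0.11 over the 22 genes above 1 in both genotypes). The ligand Wnt4, which the uterus needs for decidualization, had 82 UMIs in KO and 30 in WT (1.33), and the secreted Wnt inhibitor Wif1 had 131 and 57 (1.08). No other member passed 1.5-fold. Wnt5a, the noncanonical ligand, had 252 and 206 (0.17), the secreted antagonist Sfrp2 had 329 and 272 (0.16), and Znrf3, a feedback inhibitor that canonical signalling induces, was lowest (56 and 74, -0.52).

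Among 23 genes of BMP and TGF-beta signalling 15 were above 0 (median 0.07). The BMP ligand family member Gdf10 had 396 UMIs in KO and 219 in WT (0.74), Id1, a direct BMP target, had 477 and 277 (0.67), and the follistatin-like Fstl1 had 130 and 77 (0.64). Id2 had 591 and 572 (-0.07), and the receptor Acvr1b was lowest (46 and 62, -0.55). Notch genes (9 listed, median 0.13) and genes of EGF and FGF signalling (18 listed, median -0.07) had no member past 1.5-fold.

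Chemokines and cytokines had 10 of 14 listed members above 0 and 4 at least 1.5-fold higher (median 0.20), of which Cxcl14 was called. The other 3, all above 1 in KO alone, were Ccl5, Cxcl15 and the scavenging receptor Ackr3 (87 UMIs in KO and 43 in WT, 0.90). Over the 10 members above 1 in both genotypes the median was 0.05, with 6 above 0. Kitl, the ligand of Kit, was the 1 member at least 1.5-fold lower (65 and 90, -0.59), and Mif had 489 and 501 (-0.15).

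Antigen presentation genes had the highest median of the lists with at least 5 listed members, 0.57, with 9 of 11 listed genes above 0 and 5 at least 1.5-fold higher. MHC class I presents peptides from inside the cell and consists of a heavy chain with B2m. B2m had 1569 UMIs in KO and 906 in WT (0.68), H2-K1 had 1592 and 990 (0.57), and H2-D1 had 1036 and 650 (0.56). H2-T23, a nonclassical chain, had 112 and 68 (0.60), and H2-Q7 (138 and 79, 0.69) and H2-Q6 (73 and 31, 1.12) are near-identical copies whose reads the counting could split, so their separate values are uncertain. The class II chain H2-Aa had 350 and 214 (0.59). H2-Ke6, a steroid dehydrogenase gene of the region that is on the list by position and presents no antigen, had 95 and 98 (-0.16). In stroma spots 6 of the 8 list members listed there were above 0 (median 0.22), with H2-K1 at 0.41, H2-Aa at 0.31, H2-D1 at 0.15, B2m at -0.10 and H2-Q7 at -0.40.

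Interferon-response genes had 20 of 27 listed members above 0, with a smaller median of 0.17. Over the 17 members above 1 in both genotypes the median was 0.10, with 13 above 0. Irgm1, an interferon-induced GTPase, had 67 UMIs in KO and 28 in WT (1.14), and Rtp4 had 69 and 30 (1.09), both above 1 in KO alone. Bst2, which tethers budding virus, had 296 and 141 (0.95), and Ifi27l2a had 122 and 72 (0.64). The family members with many UMIs, Ifitm1, Ifitm2 and Ifitm3, had 0.10, 0.05 and 0.13. Irf2 was lowest (40 and 59, -0.68). Complement genes had 7 of 10 above 0 (median 0.34), with C3, C1qb (93 and 39, 1.14), Cd93 (86 and 38, 1.06) and C1s1 (490 and 288, 0.65) past 1.5-fold and Clu lowest. C1qb and Cd93 were above 1 in KO alone, and the median was 0.21 over the 8 members above 1 in both genotypes.

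Immune cell genes are given beside these groups. Plasma cell transcripts had Igha at 4854 UMIs in KO and 2640 in WT (0.76), Igkc at 3619 and 1955 (0.77) and Jchain at 799 and 430 (0.78). In WT uteri they were transcripts of stroma spots, with log2 ratios of epithelium over stroma of -1.99, -1.90 and -2.56. Iglc1, a light chain constant region, went the other way with 6 and 72 UMIs (-3.70), and it is one of several near-identical copies, so its value is uncertain. Among 8 macrophage and dendritic cell genes 4 were above 0 (median 0.11, and -0.34 over the 6 above 1 in both genotypes): C1qb, the adaptor Tyrobp (117 and 66, 0.71) and the Fc receptor chain Fcer1g (71 and 43, 0.61) were higher, and the receptor Cd14 (127 and 198, -0.76) and Lyz2 were lower. In WT uteri Cd14 was an epithelial transcript by these tables (log2 ratio of epithelium over stroma 2.11, called). Hdc, the histamine-forming enzyme on the mast cell list, had 141 and 262 (-1.01), and it too was epithelial in WT (4.10, called), with 0 of 3 mast cell markers listed. The part of immune cells in the values of the antigen presentation, interferon and complement genes was not tested.

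Stromal and matrix transcripts were higher in KO epithelium spots across most of their lists. Of 33 listed stroma markers 27 were above 0 and 13 at least 1.5-fold higher (median 0.42), and of 39 genes of collagens and basement membrane 33 and 14 (median 0.43), with none at least 1.5-fold lower in either list. Nid1, which links laminin to collagen IV in basement membranes, had 296 UMIs in KO and 139 in WT (0.97). The fibrillar collagen genes Col1a2 (826 and 416, 0.87) and Col3a1 (1124 and 597, 0.80), the intermediate filament gene Vim (468 and 228, 0.92), the elastic fibre protein Mfap4 (413 and 201, 0.92) and the fibulin Fbln2 (70 and 27, 1.26) were past 1.5-fold. Fibronectin, Fn1, had 1000 and 616 (0.58). The proteoglycan decorin, Dcn, had 4142 and 2986 (0.36). The lowest stroma marker, the ectoenzyme gene Nt5e, had 83 and 102 (-0.41).

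In WT uteri 25 of the stroma markers were listed in the comparison of epithelium with stroma, where 28.8% of all 1769 genes were called in either direction. Of the markers 23 were higher in stroma and 14 called so, with a median log2 ratio of epithelium over stroma of -0.75. They ranged from -3.25 to 0.20, with -2.13 for Dcn, -2.10 for Vim, -0.74 for Col1a2 and -0.62 for Col6a4, the last not called. Of the collagen and basement membrane genes 21 were listed there, 18 higher in stroma (median -0.51). Of the 21, 7 were called higher in stroma and 1 in epithelium, beside the same 28.8% over all genes. The same lists in stroma spots, KO over WT, are set beside these values. Of 20 collagen and basement membrane genes listed for stroma 18 were above 0, with a median of 0.43, and Col6a4 was called (1.27). Col3a1 had 0.53, Col1a2 0.51 and Nid1 0.35. Of 25 stroma markers 14 were above 0 (median 0.08), with -0.28 for Vim and -0.44 for Dcn. The collagen genes thus had higher values in KO in both compartments, and the stroma markers were mixed in stroma spots. Whether spots named epithelium held more stroma in KO was not tested. The summed level of the 9 stroma markers, given above, was 140 in KO and 101 in WT.

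Proteoglycans and elastic fibre genes had 16 of 20 above 0 (median 0.19), and matrix proteases and their inhibitors 10 of 14 (median 0.25). Bgn, biglycan, had 341 UMIs in KO and 185 in WT (0.77), Mfap5 had 154 and 77 (0.88), the gelatinase gene Mmp2 had 565 and 342 (0.61), and Serpinf1, an antiangiogenic serpin, had 439 and 236 (0.78). Blood and lymphatic endothelial genes had 11 of 14 above 0 (median 0.28). Cd34 had 303 and 143 (0.97), the lymphatic chemokine Ccl21a had 70 and 39 (0.73), and endoglin, Eng, had 107 and 64 (0.63). Both pericyte genes were higher, Rgs5 with 179 and 99 (0.74) and Pdgfrb with 229 and 139 (0.60).

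Smooth muscle genes stood lower, with 3 of 21 above 0, none at least 1.5-fold higher and 8 at least 1.5-fold lower (median -0.24). The 5 lowest were contractile or muscle-enriched genes: Cnn1, calponin, had 20 UMIs in KO and 86 in WT (-2.22), Tagln, transgelin, had 50 and 163 (-1.82), Pcp4 had 27 and 80 (-1.68), Acta2, smooth muscle actin, had 116 and 284 (-1.41), and Tpm1, a tropomyosin, had 247 and 490 (-1.10). Myh11, the smooth muscle myosin, had 46 and 90 (-1.08). Other members had values nearer 0: Myl6 had 1564 and 1533 (-0.09) and Flna, filamin A, had 623 and 677 (-0.24). In stroma spots Acta2 and Tagln had log2 ratios of -1.47 and -1.33 and were called in the authors' deposited table, with adjusted p of 0.0047 and 0.0314.

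**Figure D3:**
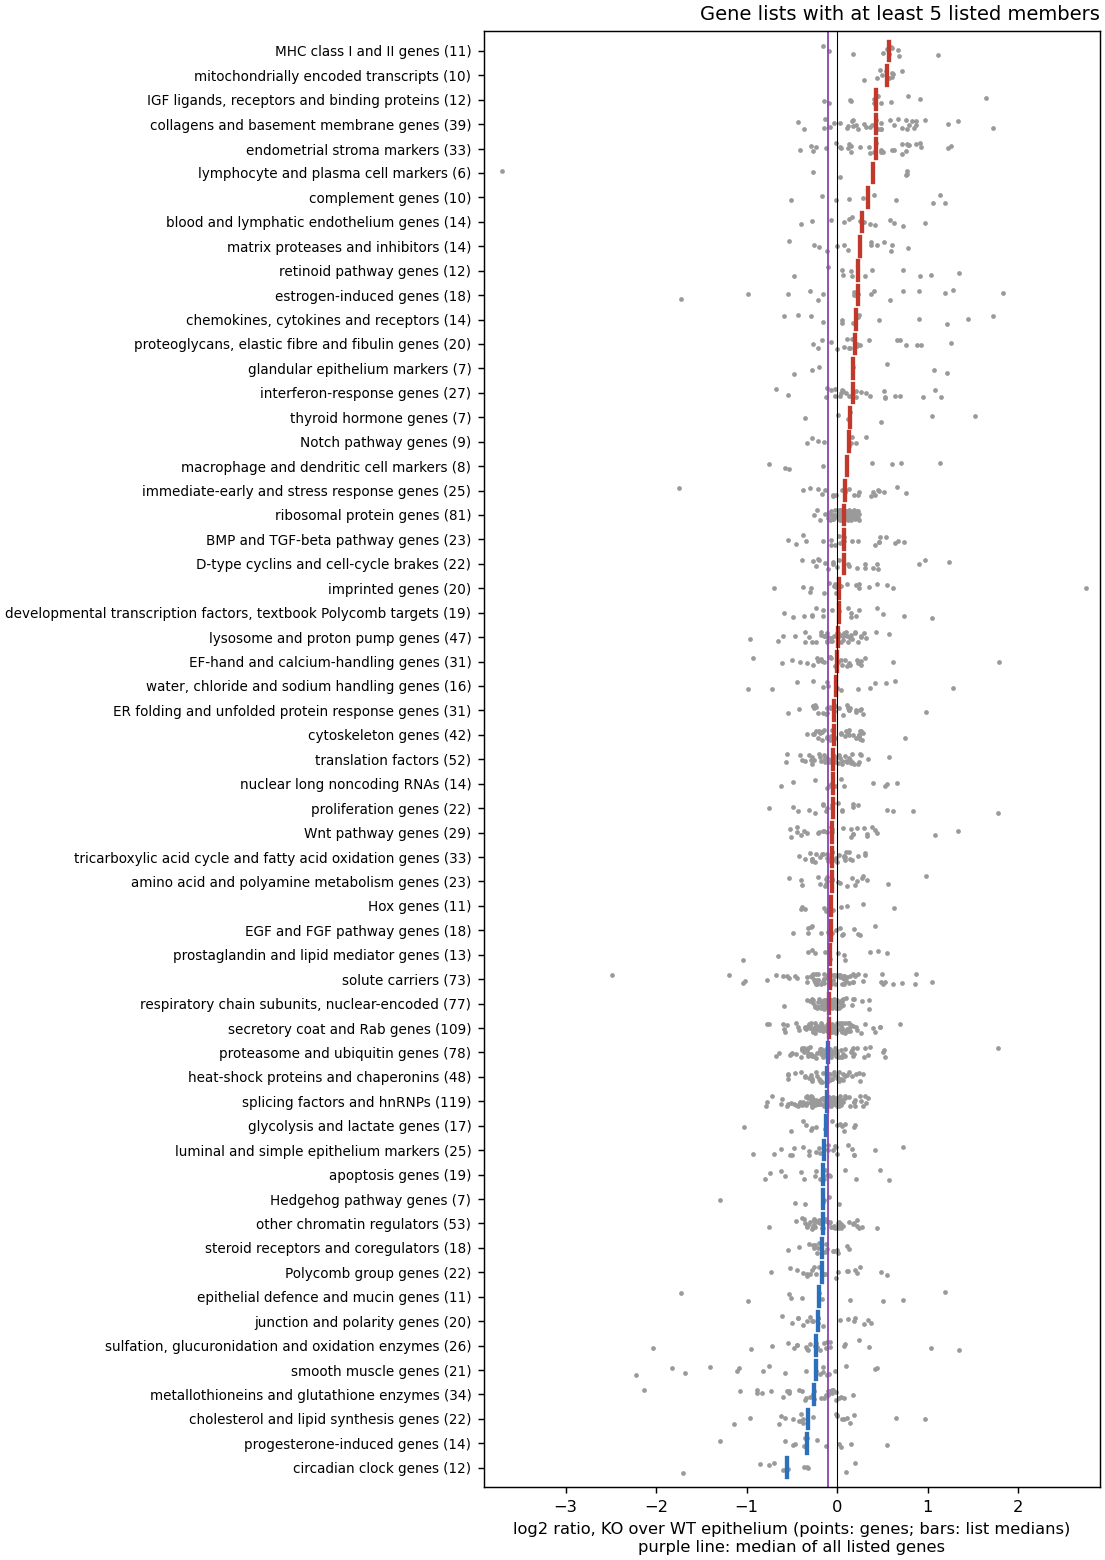
Log2 ratio of KO over WT epithelium (horizontal axis) of every listed member (grey points) of the gene lists with at least 5 listed members (rows, ordered by median, number of listed members in brackets). Short bars are list medians, red above and blue below the median of all listed genes (purple line, -0.10). Antigen presentation (0.57), mitochondrially encoded (0.55), collagen (0.43), growth factor binding (0.43) and stroma (0.42) lists are at the top, and the circadian clock list (-0.55) is at the bottom.

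Metallothioneins and glutathione enzymes had 4 of 34 listed members above 0 and 7 at least 1.5-fold lower (median -0.26), with Mt3 called. Beside the metallothioneins, the glutathione transferases Gstm2 (342 UMIs in KO and 583 in WT, -0.89) and Gstp1 (44 and 72, -0.83) were at least 1.5-fold lower. Gstm5 was the highest member with 204 and 166 (0.18), and the peroxiredoxin Prdx1 had 1141 and 1041 (0.02). Of 26 enzymes of sulfation, glucuronidation and oxidation 6 were above 0 (median -0.23), with Sult1d1 called. A further sulfotransferase, Sult1a1, had 41 and 73 (-0.95), and the monooxygenase Fmo2 had 108 and 164 (-0.72). Oxidoreductases with many UMIs, such as Aldh2 (621 and 622, -0.12) and Akr1a1 (647 and 564, 0.08), were near the median of the table.

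Circadian clock genes had the lowest median of the lists with at least 5 listed members, -0.55, with 2 of 12 above 0 and 5 at least 1.5-fold lower. Per2, a core repressor of the clock, had 24 UMIs in KO and 72 in WT (-1.70). Nr1d1, the heme receptor REV-ERB alpha, had 91 and 152 (-0.86), Per3 had 80 and 124 (-0.75), the kinase Csnk1e 81 and 121 (-0.70), and the output factor Dbp 257 and 360 (-0.60). Tef, a factor related to Dbp, had 162 and 193 (-0.37). Only Cry2 (77 and 62, 0.20) and the kinase Csnk1d (260 and 224, 0.10) lay above 0. The low genes include direct clock outputs whose transcripts swing over the day. The time of day of collection is not given in the sources used here, and its part was not tested.

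The 10 mitochondrially encoded transcripts all lay above 0, from 0.29 (mt-Nd3) to 0.71 (mt-Nd4), with a median of 0.55. They encode subunits of the respiratory chain and ATP synthase. The most UMIs were those of mt-Co1, with 21777 in KO and 13090 in WT (0.62), mt-Co3 (20656 and 12483, 0.61) and mt-Atp6 (16498 and 10015, 0.60). Together they made up 5.35% of the listed UMIs in KO and 3.57% in WT. This share is also a common sign of RNA quality or tissue state, and its part in other values was not tested. The 77 nuclear-encoded subunits of the same complexes did not share it, with 20 above 0, none at least 1.5-fold higher and a median of -0.09. In stroma spots 8 of the 10 mitochondrially encoded transcripts had a KO over WT log2 ratio above 0. Their median there was 0.32, in a range from -0.16 to 0.93, and mt-Co1 had 0.93.

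**Figure D4:**
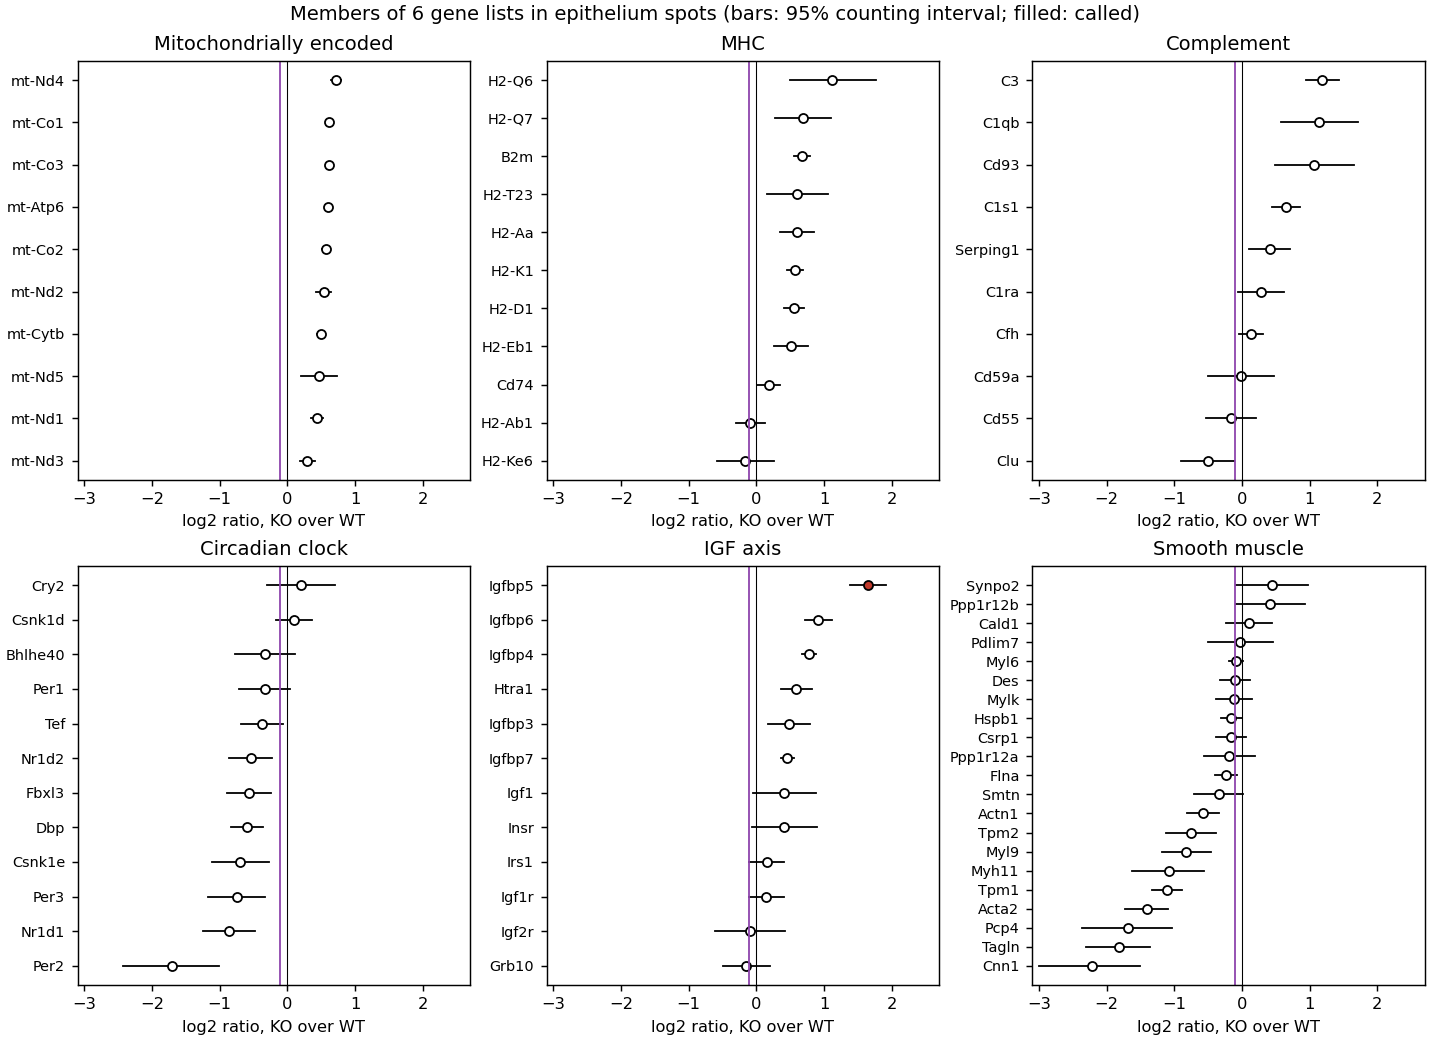
Log2 ratio of KO over WT epithelium (horizontal axes) for each listed member of 6 gene lists, with bars for the 95% counting interval, filled circles for called genes and a purple line at the median of all listed genes (-0.10). The mitochondrially encoded transcripts (0.29 to 0.71) lie to the right of the line, most clock genes to its left, and smooth muscle genes run from -2.22 for Cnn1 to values at and right of the line.

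Genes of lipid and energy metabolism lay on both sides. Cholesterol and lipid synthesis had 8 of 22 listed members above 0 (median -0.32, and -0.01 over the 18 above 1 in both genotypes). The apolipoprotein gene Apoe (1149 UMIs in KO and 541 in WT, 0.97) and the exporter gene Abca1 (152 and 89, 0.66) were higher. In WT uteri Apoe was mainly a transcript of stroma spots (log2 ratio of epithelium over stroma -2.14). The synthesis genes Fdps, Sc5d (34 and 61, -0.96) and Fads1 (57 and 82, -0.64), with Srebf2, their transcriptional activator (109 and 155, -0.62), were lower. The synthesis genes with more UMIs, Scd2 (1650 and 1470, 0.05) and Fasn (345 and 303, 0.07), were not low. In glycolysis Pfkfb3, which makes the activator of phosphofructokinase, had 61 and 115 (-1.03), and no other of 17 listed genes passed 1.5-fold in either direction (median -0.13). Prostaglandin and lipid mediator genes had no member at least 1.5-fold higher, and Ptgs1, cyclooxygenase 1, had 60 and 87 (-0.65) and the sphingosine kinase Sphk1 31 and 59 (-1.04). Genes of the tricarboxylic acid cycle and fatty acid oxidation had none of 33 past 1.5-fold.

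Transport genes were mixed. Of 73 listed solute carriers 5 were at least 1.5-fold higher and 7 lower. The high side included the iron exporter Slc40a1 (109 UMIs in KO and 55 in WT, 0.87), the urea transporter Slc14a1 (326 and 166, 0.86), the noradrenaline transporter Slc6a2 (254 and 143, 0.71) and the amino acid transporter Slc7a8 (111 and 67, 0.61). On the low side were the citrate carrier Slc13a5 (11 and 57, -2.49), the pyrimidine nucleotide carrier Slc25a33 (43 and 91, -1.20), the sodium-calcium exchanger Slc8a1 (56 and 106, -1.04), the riboflavin transporter Slc52a3 (46 and 86, -1.02) and Slc25a48 (351 and 555, -0.78). Atp1b1, the beta subunit of the sodium pump, had 179 and 326 (-0.98).

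General cell machinery showed small values. Ribosomal protein genes had 65 of 81 above 0, with none past 1.5-fold and a median of 0.08. Splicing factors and hnRNPs had 29 of 119 above 0, with none at least 1.5-fold higher and 5 lower (median -0.12). Translation factors (52 listed, median -0.04) and heat-shock proteins and chaperonins (48 listed, median -0.11) had no member past 1.5-fold. Of 47 lysosome and proton pump genes 3 were at least 1.5-fold lower, with Ctsd, the aspartic protease cathepsin D, at 963 UMIs in KO and 1727 in WT (-0.96). The other lysosomal genes with many UMIs, Psap (1343 and 1141, 0.12) and Ctsb (1458 and 1451, -0.11), stood near the rest of the table. In protein folding of the endoplasmic reticulum Pdia4, a disulfide isomerase, was the 1 of 31 genes past 1.5-fold (77 and 36, 0.98), and the vesicle coat gene Sec23b had 343 and 533 (-0.75).

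Cell-cycle genes were mixed as well. Of 22 proliferation genes 10 were above 0 (median -0.05). Ube2c, a mitotic ubiquitin-conjugating enzyme, had 67 UMIs in KO and 18 in WT (1.78), the histone H2afx had 87 and 45 (0.84), and Stmn1, stathmin, had 292 and 175 (0.62). Tyms, thymidylate synthase, had 38 and 59 (-0.75). Among D-type cyclins and cell-cycle brakes 12 of 22 were above 0 (median 0.07). The inhibitor Cdkn2c, Gadd45g and cyclin D3, Ccnd3 (177 and 83, 0.98), were at least 1.5-fold higher, and Cdk4 had 434 and 412 (-0.04). Apoptosis genes had 4 of 19 above 0, none at least 1.5-fold higher and 3 lower (median -0.15). The 3 were the survival gene Bcl2l1 at 151 and 214 (-0.62), the death receptor Tnfrsf21 at 41 and 63 (-0.74) and Bnip3 at 45 and 72 (-0.79). The highest member was another survival gene, Bcl2, at 66 and 41 (0.57).

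Immediate-early and stress response genes had 16 of 25 listed members above 0 (median 0.09). The growth-signal factor Egr1 had 137 UMIs in KO and 80 in WT (0.66), and Klf10, which TGF-beta induces early, had 77 and 42 (0.76). Jun had 249 and 282 (-0.30), and Ccn2, given above, was the 1 member at least 1.5-fold lower. Calcium-handling genes were balanced, with 16 of 31 above 0 (median 0.00). The EF-hand gene S100a4 had 95 and 57 (0.62), S100g, a vitamin D and estrogen-regulated calcium buffer, had 726 and 782 (-0.22), and Stc1, stanniocalcin, had 82 and 115 (-0.60). Calb1 and S100g, both calcium buffers of uterine epithelium, thus differed in size of ratio. Among 14 nuclear long noncoding RNAs Malat1 had 973 and 1256 (-0.48), Snhg6 had 118 and 69 (0.66), and Snhg5 had 70 and 99 (-0.62). Cytoskeleton genes had 1 of 42 at least 1.5-fold higher, the tubulin gene Tubb6 (82 and 45, 0.75), and Actb, beta-actin, had 2845 and 2553 (0.04).

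Among textbook targets of the complex, the listed developmental factors and Hox genes held no called gene. Of 61 developmental transcription factors named on the list 19 were listed, and 10 of these were above 0, beside 35.2% of all listed genes. Past 1.5-fold 2 of the 19 were higher (3.44% over all genes) and 1 lower (5.4%). Their median of 0.02 became -0.16 over the 15 above 1 in both genotypes. The cell-cycle inhibitor Cdkn2c, given above, had 1.24. Msx2, a homeobox gene paired with Msx1 in the uterus, had 83 UMIs in KO and 37 in WT (1.05), Prrx1, a mesenchymal homeobox gene, had 87 and 48 (0.74), and Dlx6 had 128 and 178 (-0.59). Of 11 listed Hox genes 4 were above 0 (median -0.06, or 0.04 once centred on the median gene). Hoxd9 was the 1 member past 1.5-fold (208 and 124, 0.63), the uterine patterning genes Hoxa10 (354 and 318, 0.04) and Hoxa11 (177 and 178, -0.12) were near the rest of the table, and Hoxb6 was lowest (179 and 218, -0.40). Of 20 imprinted genes 10 were above 0 (median 0.02), with Asb4 called and Ndn (93 and 56, 0.62) next. The potassium channel gene Kcnq1 was lowest (73 and 109, -0.69). A target that stayed below the listing level in both genotypes would not appear in these counts.

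The comparison of KO with WT in stroma spots uses other spots of the same 8 uteri, and its values are given side by side. It listed 1191 genes, 1185 of which were also listed for epithelium, and it called 18 genes (1.51%). In all, 19 genes listed in both were called in at least 1 of the compartments. Cxcl14 and Dio2 were called in both. In stroma Cxcl14 had 794 UMIs in KO and 66 in WT (2.58), beside 1.45 in epithelium, and Dio2 had 463 and 78 (1.56), beside 1.53. Igfbp5 was called in epithelium, and in stroma it had 1093 and 363 UMIs (0.58), with an adjusted p in the authors' deposited table of 0.908. Asb4, Sult1d1, Mt3 and Lcn2 were not listed for the stroma comparison.

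Genes called in stroma had a range of values in epithelium. Bcat1, a branched-chain aminotransferase, had a log2 ratio of 2.73 in stroma (174 UMIs in KO and 13 in WT) and -0.53 in epithelium (411 and 548). Lbp, the lipopolysaccharide-binding protein, had 1.85 and -0.17, the aminopeptidase Anpep 1.40 and -0.07, and Bpifb5, a secreted lipid-binding protein, 2.63 and 0.50. Clca1 had 2.98 in stroma and 1.28 in epithelium. In WT uteri Bcat1, Lbp, Clca1, Anpep and Cxcl14 were epithelial transcripts, with log2 ratios of epithelium over stroma of 4.05, 3.28, 2.83, 2.45 and 1.65. Dio2 had -0.59 there and Col6a4 -0.62. Of 25 luminal and simple epithelium markers 6 were listed for stroma, all above 0 in it (median 1.29, beside -0.05 over all genes listed in both). A marker low in WT stroma, such as Krt19 (213 UMIs in KO and 36 in WT), was listed there only if it was high in KO. The direction of the listed markers was thus partly set by the listing level. Whether spots named stroma held more epithelium in KO was not tested. The smooth muscle genes Cald1 (-1.25 and 0.10) and Myh11 (-1.84 and -1.08), the homeobox gene Meis2 (-1.43 and 0.24), the chemokine Cxcl12 (-1.17 and -0.29) and the matrix gene Fbln1 (-1.06 and -0.27) were called lower in stroma. The difference between compartments was not tested, since the tables hold no spread between animals.

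**Figure D5:**
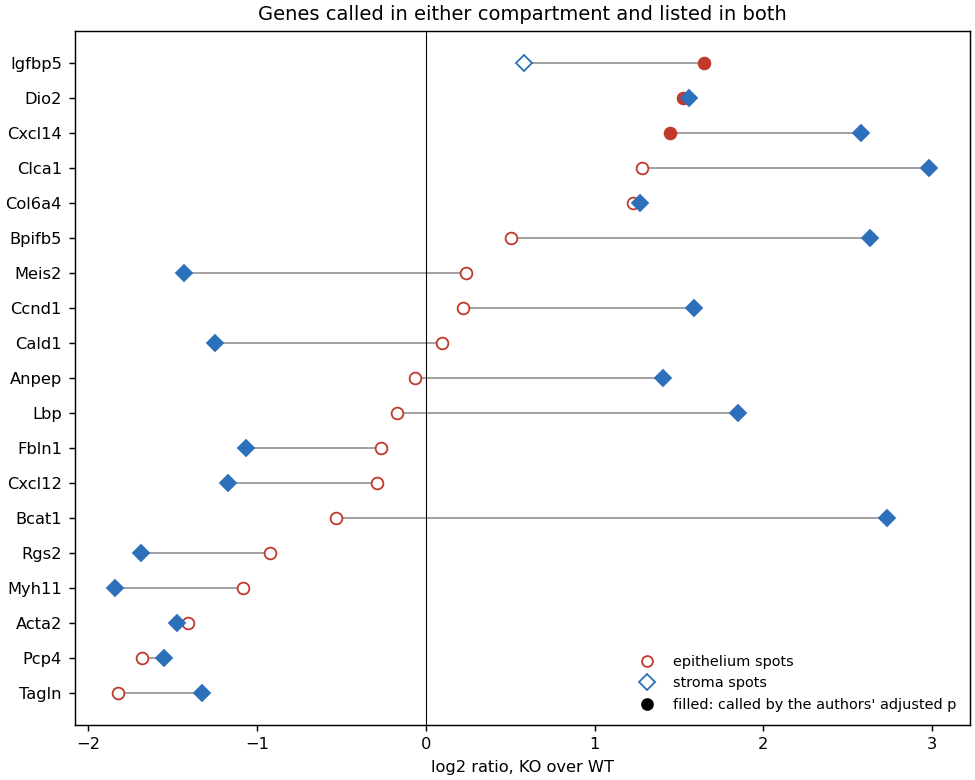
Log2 ratio of KO over WT (horizontal axis) in epithelium spots (red circles) and stroma spots (blue diamonds) for the 19 genes called in at least 1 compartment and listed in both, with filled symbols where called and a line joining the values of a gene. Cxcl14 and Dio2 are filled in both compartments on the right, Bcat1 spans from -0.53 in epithelium to 2.73 in stroma, and Tagln, Acta2, Pcp4 and Myh11 lie to the left in both.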

How the data were processed

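Sections of 8 uteri, 4 KO and 4 WT, were profiled by Visium, per the labels' protocols. The submitters' processing notes name the build GRCm38. Which aligner was used, how spots were named epithelium or stroma, and which test was run is not stated in them or in the labels. The authors' deposited signal is an average per group, pooled over animals. The deposited tables also hold a log2 fold change per group and an adjusted p-value (FDR), per the file headers.

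The authors' log2 values follow from each group's pooled UMI sum plus 1, divided by its summed size factors plus 1. Solving for these sums (61.7 in KO and 56.9 in WT epithelium) made 100% of average times size factor sum whole within 0.01. The recovery was tested on simulated tables. Ratios carry no pseudocount, and their 95% intervals are Clopper-Pearson intervals computed from the UMIs.

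No test was run, since the tables hold no replicates. Genes were called by the authors' deposited adjusted p-value under 0.05. Members and the 64 gene lists were chosen with earlier results of these data known. Named genes were all called genes, the 10 uncalled genes of lowest adjusted p, the 15 highest and 15 lowest ratios among uncalled genes with at least 100 UMIs, Ezh2, Ezh1, Eed, Suz12, Pgr and Esr1, the 10 most abundant genes, and from each list up to 5 members past 1.5-fold per direction, the 3 most abundant, the highest and the lowest, with every member of lists of 8 or fewer. Cell type markers, genes near a called gene and genes called in stroma were named beside these, the last 2 kinds after their values were seen. Of the listed genes 5809 matched GENCODE release M21, and 4696 matched RefSeq promoter windows (GRCm38.p6). Unnamed gene models (97) were counted and not named. Scripts used Python 3.11.15, NumPy 2.4.6, SciPy 1.17.1, pandas 2.3.3 and matplotlib 3.10.9. Some genes are not reported here.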

Additional observations from a re-analysis of the deposited data

How the results depend on the processing

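With an adjusted p under 0.01 in the authors' deposited table, 1 gene was called higher (Asb4) and 1 lower (Sult1d1), so 5 of the 7 calls rest on the 0.05 threshold. Asking for an absolute log2 ratio of at least 1 as well left 4 and 3. Without the lowest 25% of genes by mean level 4 and 2 were called, 119 genes were at least 1.5-fold higher and 156 lower. Among genes with an average above 1 in both genotypes, 112 were higher and 135 lower, so many of the 200 and 314 genes of the full table lie near the listing level. Centring on the median gene gave 280 higher and 176 lower. Scaling by the sum of all listed genes gave 200 and 318, scaling by the sum without mitochondrially encoded transcripts, chosen after the data were seen, 211 and 268, and the authors' own log2 fold change 196 and 303. Centring changed the sign of the median of 15 of 64 lists, all with medians between -0.10 and 0, and the other scalings changed 1 each. Leaving out the lowest 25% of genes changed 6 of 62 list medians, among them the glandular (0.18 to -0.20), Wnt (-0.05 to 0.15), Notch (0.13 to -0.01), developmental factor (0.02 to -0.16) and macrophage (0.11 to -0.34) lists. Centring moved 36 of the 370 named genes outside their counting interval, and the other scalings moved 0. No paired analysis was possible because each deposited average merges all 4 uteri of a genotype. For the same reason no replicate could be left out. The UMI sums limit precision most for genes with fewer than 150 UMIs.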
